A study of Mus musculus with 8 samples.

Results

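The late-replicating bins of mouse chromosome 4 were the 5 kb bins selected by a mean timing score below -2 over 4 Repli-seq profiles. They numbered 9515 of the 30659 bins with a score in every profile (31.0%), or 47.6 Mb of 153 Mb measured. Merging adjacent late bins gave 57 domains, from 10 kb to 3550 kb long with a median of 545 kb. The rule used the scores of all 4 profiles, so the levels of late bins describe the selection and were not tested.

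The profiles came from mouse embryonic stem cells: 2 were control profiles of JM8N4 cells and 2 came from cells with a Klf4 enhancer deletion, and each rested on 1 library of early and 1 of late S phase. Cells of both genotypes had been labelled for 2 h with BrdU, a thymidine analog built into new DNA, and sorted by DNA content, and 40000 cells of each fraction gave the immunoprecipitated, sequenced DNA. No age, treatment or further allele is given for either genotype, nor the position of the deletion, the number of alleles or clones, or whether replicates were separate cultures, so p-values may measure technical spread alone. The table holds timing scores without read counts, so the depth behind a score is unknown, and the embryonic stem cell label could not be set against marker genes because expression was not analysed here.

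DNA is copied in a set order during S phase, in domains of neighbouring origins that fire at similar times. Early domains are mostly gene-rich and open, while late domains are mostly poor in genes, rich in A and T, and often in contact with the nuclear lamina. Large genes of neurons, and tandem gene families used in a single organ such as liver, ovary or skin, are common residents of late domains in stem cells, where most of them are silent. Low scores were read as late: all 20 of 20 listed housekeeping genes scored above 0 in every profile. The direction was also taken from gene density, so the low gene density of late bins is not independent evidence of that reading.

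Sequence features were not used by the rule, and 5 promoters from late bins are shown as examples. Each is the 300 bases from 250 before to 50 after a gene start, taken from RefSeq (GRCm38.p6, the same build as mm10), read 5′ to 3′ on the strand of the gene, with every CG dinucleotide in capitals.
Brinp1 promoter, chr4:68954348-68954647, minus strand: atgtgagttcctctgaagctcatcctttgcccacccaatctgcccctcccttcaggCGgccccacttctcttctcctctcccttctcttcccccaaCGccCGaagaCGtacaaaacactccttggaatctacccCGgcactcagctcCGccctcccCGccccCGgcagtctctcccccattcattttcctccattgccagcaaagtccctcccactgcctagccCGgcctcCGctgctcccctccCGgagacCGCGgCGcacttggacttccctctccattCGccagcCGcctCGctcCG
Epha7 promoter, chr4:28812881-28813180, plus strand: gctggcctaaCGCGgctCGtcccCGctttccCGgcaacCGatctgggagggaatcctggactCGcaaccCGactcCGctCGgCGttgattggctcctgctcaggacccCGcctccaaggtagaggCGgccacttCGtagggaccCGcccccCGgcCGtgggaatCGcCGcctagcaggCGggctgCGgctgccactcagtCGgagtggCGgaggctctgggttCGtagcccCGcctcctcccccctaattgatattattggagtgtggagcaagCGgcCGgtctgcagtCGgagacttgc
Cyp2j5 promoter, chr4:96664070-96664369, minus strand: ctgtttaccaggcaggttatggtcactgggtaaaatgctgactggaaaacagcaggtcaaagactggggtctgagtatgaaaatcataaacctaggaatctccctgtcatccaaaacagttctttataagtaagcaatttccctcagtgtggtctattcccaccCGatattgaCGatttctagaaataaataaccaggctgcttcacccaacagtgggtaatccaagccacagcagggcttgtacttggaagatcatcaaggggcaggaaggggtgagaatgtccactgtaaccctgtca
Pramel11 promoter, chr4:143900331-143900630, minus strand: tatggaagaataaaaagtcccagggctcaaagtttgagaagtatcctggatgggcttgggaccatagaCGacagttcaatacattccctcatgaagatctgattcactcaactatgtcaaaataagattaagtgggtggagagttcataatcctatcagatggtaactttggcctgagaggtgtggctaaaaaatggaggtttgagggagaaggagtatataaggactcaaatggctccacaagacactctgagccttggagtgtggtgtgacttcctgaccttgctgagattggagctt
Mup17 promoter, chr4:61595783-61596082, minus strand: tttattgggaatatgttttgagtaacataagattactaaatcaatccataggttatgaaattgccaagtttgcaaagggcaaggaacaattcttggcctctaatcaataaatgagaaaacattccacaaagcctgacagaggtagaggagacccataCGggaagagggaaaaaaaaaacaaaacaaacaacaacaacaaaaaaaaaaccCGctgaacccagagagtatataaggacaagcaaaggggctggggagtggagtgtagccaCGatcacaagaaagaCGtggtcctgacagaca
Brinp1 and Epha7, a neuronal inhibitor of cell division and a receptor of axon guidance, have 18 and 28 CG dinucleotides in these windows. Cyp2j5 (an arachidonic acid epoxygenase of kidney and liver), Pramel11 (a germline family member) and Mup17 (a urinary pheromone carrier made in liver) have 2, 1 and 4. The bin holding the promoter scored -2.70, -2.66, -2.56 and -2.54 in control 1, control 2, deletion 1 and deletion 2 for Brinp1. For Cyp2j5 it scored -3.63, -3.36, -3.45 and -2.32 in the same order. Late bins therefore held promoters rich in CG as well as promoters with almost none.

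Promoters in late bins mostly had few CG dinucleotides. With the first listed promoter of each protein-coding gene, 72 of 1067 promoters lay in late bins. Their median was 2 CG, against 9 in bins with a mean from -2 to 2, 18 in early bins (mean above 2) and 15 over all promoters. At most 3 CG were found in 69.4% of late promoters and in 18.7% of all. At least 15 were found in 9 late promoters (12.5%) and in 51.9% of all. The median G and C content was 46.0% in late bins and 58.0% over all promoters. The 38 late promoters of 4 tandem families (the major urinary protein, Prame, Skint and Cyp2j genes described below) included 0 with 15 CG or more, and the other 34 included 9 (26.5%). Those 34 are not free of near-copies, such as the promoters of Gm428 and Gm11758. The letters TATAAA, searched on both strands, occurred in 29.2% of late promoters and 10.4% of all. A match is a run of letters and was not tested for function.

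Late bins held few protein-coding and long noncoding RNA genes. By gene midpoint, protein-coding genes lay at 2.00 per Mb in late bins, 5.95 per Mb in bins between -2 and 2 and 18.0 per Mb in early bins. Long noncoding RNA genes lay at 1.93 per Mb in late and 7.89 per Mb in early bins. Pseudogenes were closer in density, at 2.77 per Mb in late and 4.30 per Mb in early bins, and 131 of 535 measured pseudogenes lay wholly in late bins. Genes of small nuclear RNAs lay at 0.315 per Mb in late bins, 0.294 per Mb in bins between -2 and 2 and 0.668 per Mb in early bins. Of 1301 measured protein-coding genes, 81 lay wholly in late bins (6.23%) and 21 partly, so 102 had a late bin (7.84%). Of the 57 domains, 22 held no protein-coding gene, 23 held 1 and 12 held more. The 6 domains with at least 7 protein-coding genes held 66 between them.

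**Figure D1:**
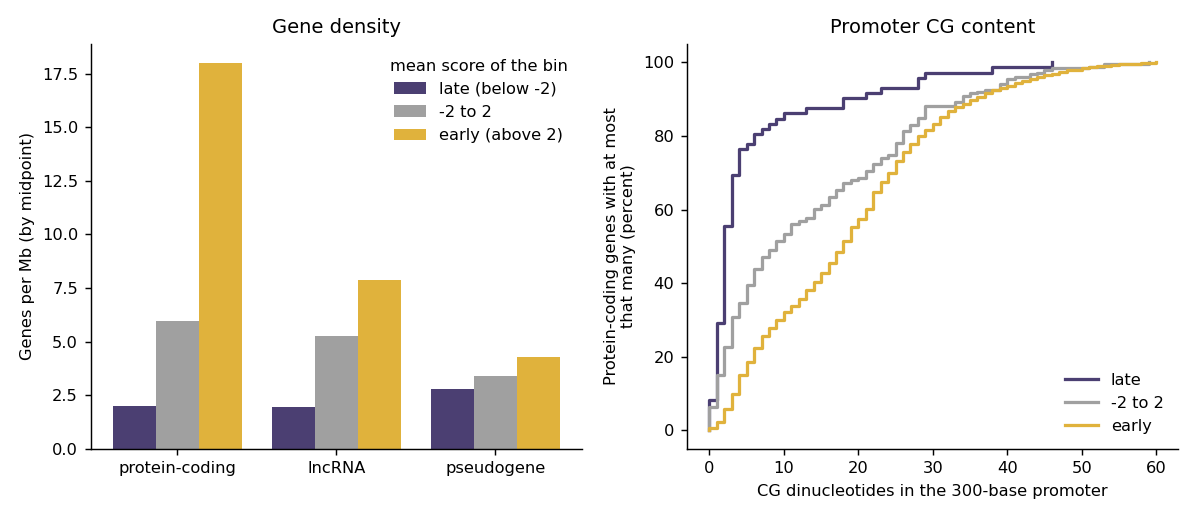
Left, genes per Mb by midpoint for protein-coding, long noncoding RNA and pseudogene classes in late bins (mean score below -2), bins from -2 to 2 and early bins (above 2). Right, the percent of protein-coding genes whose 300-base promoter holds at most a given number of CG dinucleotides. Late bins have the lowest density of each class, 2.00 protein-coding genes per Mb against 18.0 in early bins, and a median of 2 CG per promoter against 18.

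Late bins held 3 of 56 measured microRNA genes, Mir876, Mir873a and Mir873b, all inside the Lingo2 domain. Mature forms of each are shown from RefSeq (GRCm38.p6), because no other late domain held a listed microRNA, with the seed (bases 2 to 8) in capitals.
mmu-miR-873a-5p, chr4:36668556-36668576, minus strand: gCAGGAACuugugagucuccu
mmu-miR-873b, chr4:36668565-36668586, plus strand: aCAAGUUCcugcaaaugcacac
mmu-miR-876-5p, chr4:36645422-36645443, minus strand: uGGAUUUCucugugaaucacua
Their 3 seeds all differ. Mir873a and Mir873b lie over each other on opposite strands and share a bin score of -2.77, and the bin of Mir876 scored -2.73.

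The late share of chromosome 4 was lowest in its part above 100 Mb. Late bins made up 36.0% of measured bins below 50 Mb, 46.0% from 50 to 100 Mb and 13.6% above 100 Mb, with 26, 22 and 9 domains. Neighbouring domains were parted by 15 kb to 15375 kb, with a median of 680 kb. Of the 56 stretches between domains, 22 reached a mean score above 0 and 14 above 2, while 34 stayed at or below 0. The 5 stretches shorter than 100 kb all stayed below -1.5.

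The 3 longest domains each held 1 protein-coding gene, all of them expressed in neurons. Ptprd, a receptor tyrosine phosphatase of synapses, spans 2271 kb, and 98.0% of its bins were late. Across the gene, control 1 scored -2.46, control 2 -2.76, deletion 1 -2.38 and deletion 2 -2.54. Its domain, chr4:75985000-79534999, was the longest at 3550 kb and scored -2.29, -2.76, -2.24 and -2.54 in the same order of profiles. Both number 2 profiles were the lower ones there. Brinp1 was the single protein-coding gene of the next domain by length, chr4:66965000-70019999 (3055 kb), which scored -2.53, -2.79, -2.47 and -2.62. Lingo2, a leucine-rich repeat membrane protein of neurons, lay wholly in a 2840 kb domain, chr4:35520000-38359999, with scores of -2.498, -2.77, -2.21 and -2.40. All 3 of these domains were lower in both number 2 profiles than in the number 1 profile of the same genotype.

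The remaining long domains differed in content. The domain chr4:29245000-31749999 (2505 kb) held no protein-coding gene and was the longest such domain, with scores of -2.78, -2.97, -2.63 and -2.69. The 2395 kb domain chr4:112260000-114654999 held Skint genes of the skin and thymus and Trabd2b, an inhibitor of Wnt signalling. It scored -2.47, -2.83, -2.46 and -2.51, yet Trabd2b alone scored -3.39, -2.61, -3.60 and -2.52, lower in the number 1 profiles. Within a single domain, then, the order of the profiles changed.

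Late genes included many of the longest genes of the chromosome. Of 12 measured genes of 500 kb or more, 10 had a late bin (83.3%), against 7.84% of all measured protein-coding genes. Lingo2 and Skint5 lay wholly in late bins. Pde4b (98.1% of bins late), Dab1 (90.7%), Astn2 (89.8%), Nkain3 (83.0%) and Agbl4 (75.6%) were mostly late. Csmd2 (58.1%) and Nfia (41.3%) crossed into earlier bins, and the highest bin of Csmd2 had a mean of 1.51. Adamtsl1 and Camta1 had no late bin. The median length was 6868 bases for wholly late genes, 280800 for partly late genes and 19018 for genes with no late bin. A long gene spans more bins, so it can meet a late bin more readily and can lie wholly in late bins less readily.

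A list of 34 long or neural genes held 3 that were wholly late (8.82%, against 6.23% of all measured genes). The list also held 12 that were partly late, against 21 of all 1301 measured genes, and long genes span more bins. Its wholly late members included Brinp1, Lingo2 and Mmp16, a membrane-bound matrix metalloproteinase, which scored -3.01, -2.81, -2.85 and -2.56. Lists of 10 Cyp4 fatty acid hydroxylase genes, 18 type I interferon genes and 24 olfactory receptor genes, also tandem families of this chromosome, had 0 wholly or partly late members. The 20 housekeeping genes also had 0. With 7.84% of all measured genes touching a late bin, lists of this size would hold few.

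The 4 tandem families counted here made up 46 of the 102 protein-coding genes with a late bin (45.1%). Neighbouring late genes such as Gm11236 to Gm11239, of near-equal length, and the Aadacl genes were not counted as families. Late bins touched 16 of 24 measured major urinary protein genes, 18 of 28 Prame family and Oog genes (germline and oocyte proteins), 7 of 11 Skint genes and 5 of 7 Cyp2j genes. Copies in these families are closely alike, so the assignment of their reads is uncertain. For Mup17 the control scores were -3.15 and -2.61 and the deletion scores -2.87 and -2.31. Pramel11 scored -3.46, -2.65, -3.43 and -2.42 in that order. Cyp2j6 scored -3.25, -2.67, -3.40 and -2.25. In these 3 genes both number 1 profiles lay below both number 2 profiles. Skint10 went the other way, at -2.62, -3.35, -2.41 and -2.86.

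The other gene-dense domains were less late than the Cyp2j domain described next. The urinary protein domain, chr4:60405000-61889999, held 16 protein-coding genes and scored -2.71, -2.12, -2.45 and -1.94. The domain chr4:72265000-73929999 held 13, among them Rasef, a small GTPase gene, and scored -2.64, -2.37, -2.46 and -2.15. A pair of neighbouring domains near the far end of the chromosome held 13 and 9 genes, most of them Prame relatives. The first, chr4:143700000-144209999, scored -2.94, -2.24, -2.86 and -2.06, and the next, chr4:144265000-144564999, scored -2.57, -2.10, -2.39 and -1.69. In all 4 of these domains deletion 2 had the highest score and control 1 the lowest.

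The 5 lowest domain means included that of the 2505 kb domain above without a protein-coding gene, at -2.77. The domain chr4:70605000-71884999, with Gm11232 as its protein-coding gene, had the lowest mean, -2.86, with -3.06, -2.90, -2.996 and -2.48 in the 4 profiles. The domain chr4:63795000-65164999 had a mean of -2.84 and scored -3.02, -2.81, -2.87 and -2.64. It holds Tnc (tenascin C, an extracellular matrix protein), Tnfsf8 (CD30 ligand) and the start of Pappa, a protease of growth factor binding proteins. Tnc itself scored -3.54, -2.84, -3.54 and -2.45. The Cyp2j domain, chr4:96305000-97609999, had a mean of -2.83 and scored -3.05, -2.94, -2.88 and -2.44. The domain of Tmem64 (a membrane protein of the endoplasmic reticulum), chr4:15250000-15859999, had a mean of -2.74 with -3.29, -2.61, -2.86 and -2.19. In each of these 4 domains, deletion 2 was the least late profile.

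Late bins did not all lie below the limit in every profile. Of the 9515, 5842 (61.4%) were below -2 in all 4 profiles, 2218 in 3, 1434 in 2 and 21 in 1. A further 2073 bins were below -2 in at least 1 profile without a mean below -2. The bin at 52810000, just inside the limit at -2.0001, scored -2.71, -1.68, -2.43 and -1.18. The bin at 3140000, just outside at -1.9999, scored -2.90, -1.61, -2.15 and -1.33. Bins on either side of the limit were alike in level and in spread.

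By profile, the mean score over late bins was -2.72 in control 1, -2.56 in control 2, -2.61 in deletion 1 and -2.31 in deletion 2. The SD over bins was close, from 0.44 to 0.47. Late bins below -2 made up 94.4%, 85.2%, 92.9% and 73.4% of the 9515. The medians of the whole chromosome were -0.79, -0.37, -0.73 and -0.21, so the number 2 medians were the higher ones in both genotypes. Relative to those medians, late bins lay at -1.92, -2.20, -1.88 and -2.10, and number 2 profiles were then the lower ones. Runs of bins below -2 in a single profile numbered 79, 57, 92 and 58, and the longest was 2565, 4655, 2015 and 2690 kb. The longest run was longer in number 2 than in number 1 for both genotypes.

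**Figure D2:**
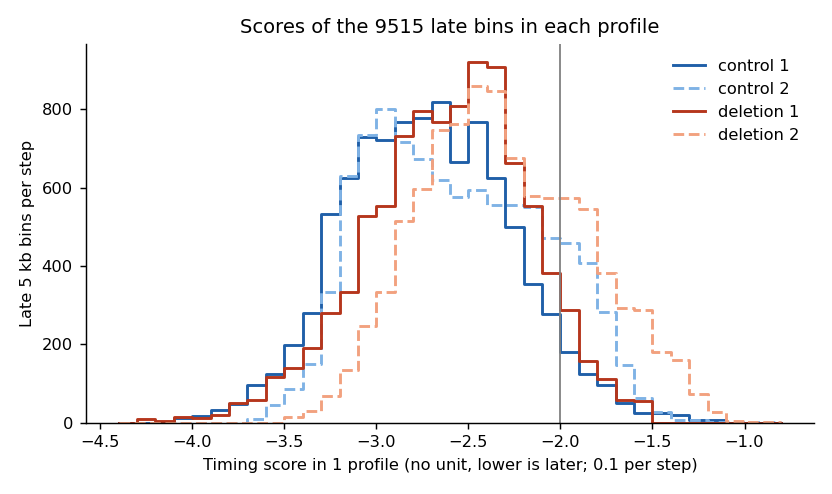
Number of the 9515 late bins in each step of 0.1 of the timing score, 1 line per profile. The vertical line marks the limit of -2 on the mean, and deletion 2 has the largest part of its bins to the right of it, with 73.4% below -2 against 85.2% to 94.4% in the others.

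Within late bins, profiles were alike by replicate number and not by genotype. Over the 9515 late bins, control 1 and deletion 1 correlated at r = 0.66 and control 2 and deletion 2 at r = 0.77. The control profiles correlated at 0.13 and the deletion profiles at 0.004. Over all 30659 bins every pair correlated at 0.967 or more, and over early bins the lowest pair was at 0.52. Adjacent bins differ by a median of only 0.014 to 0.018 in late bins and are not independent, and the selection narrows the range of scores, so these values describe the profiles. The labels do not say what samples of 1 number share. In late bins the median SD between the 2 replicates was 0.36 for control and 0.38 for deletion, against 0.30 and 0.42 in bins from -2 to 2 and 0.23 and 0.32 in early bins.

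The gap between replicate numbers varied with domain length in both genotypes. In the 12 domains shorter than 250 kb (3.27% of late bins) domain means averaged -2.53 for control 1, -1.83 for control 2, -2.57 for deletion 1 and -1.64 for deletion 2. In the 26 domains from 250 kb to under 1 Mb the averages were -2.78, -2.22, -2.75 and -1.98. In the 19 domains of 1 Mb or longer (69.7% of late bins) they were -2.77, -2.67, -2.63 and -2.39. The gap between numbers was thus larger on average in the shorter classes. Domains of 1 Mb or longer went both ways, with control 2 minus control 1 from -0.47 to 0.90 and deletion 2 minus deletion 1 from -0.30 to 0.98. Control 2 was below control 1 in 1 of 12, 2 of 26 and 7 of 19 domains of these classes. Deletion 2 was below deletion 1 in 0, 2 and 7.

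Over the 57 domains, the log10 of length correlated with control 2 minus control 1 at r = -0.45 (rho = -0.62) and with deletion 2 minus deletion 1 at r = -0.60 (rho = -0.68). The 2 gaps correlated with each other at r = 0.87, and they share no profile. Longer domains also had lower bins, with r = -0.83 between log10 length and the mean score of the lowest bin. A longer domain offers more bins for a low value, and the limit of -2 bounds short domains from above. No bin fell below -2 in 11 domains in control 2, 18 in deletion 2, 1 in control 1 and 0 in deletion 1, and the longest of the 18 was 665 kb.

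**Figure D3:**
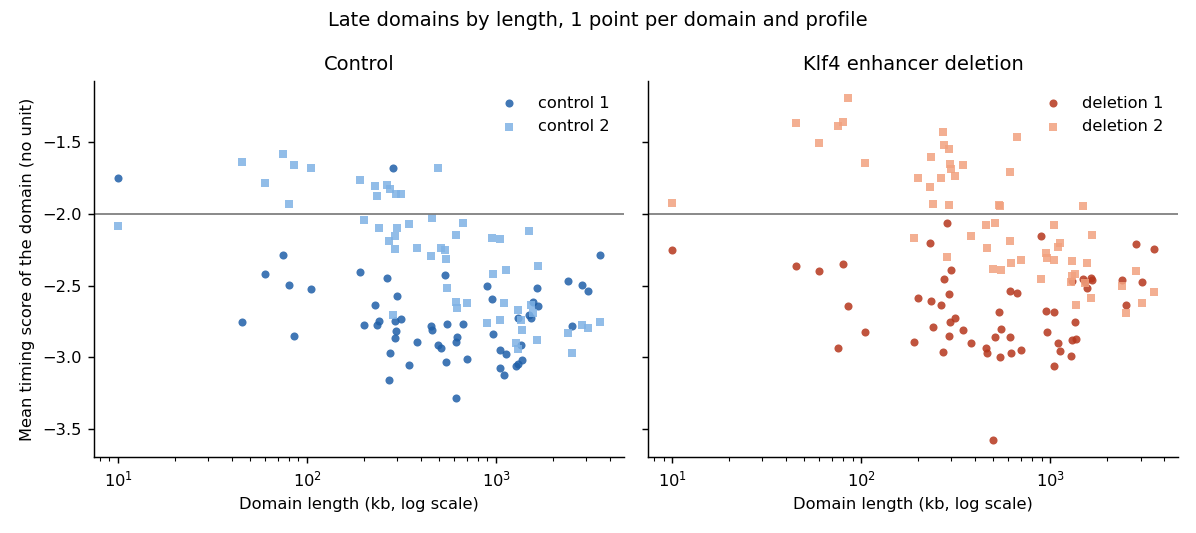
Mean timing score of each of the 57 late domains against its length in kb on a log axis, control profiles on the left and deletion profiles on the right. Circles are number 1 and squares number 2. Squares lie above circles in most short domains, -1.83 against -2.53 on average in control below 250 kb, and overlap them in domains of 1 Mb or longer.

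Scores changed gradually at domain edges. The 49 domains of 200 kb or more have 98 edges. At 205 kb outside, where 82 edges had a bin, the mean score was -0.77 (control 1), -0.47 (control 2), -0.68 (deletion 1) and -0.22 (deletion 2). Over all 98 edges it was -2.29, -1.76, -2.27 and -1.61 at 5 kb outside, and -2.92, -2.46, -2.83 and -2.15 at 195 kb inside. Between these distances both number 2 profiles lay above both number 1 profiles. At 500 kb inside, control 2 (-2.62) lay below deletion 1 (-2.58). Only 62 edges, those of longer domains, reach that distance, so this is not a change over the same edges. Outside bins that belonged to another late domain were left out of these means.

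**Figure D4:**
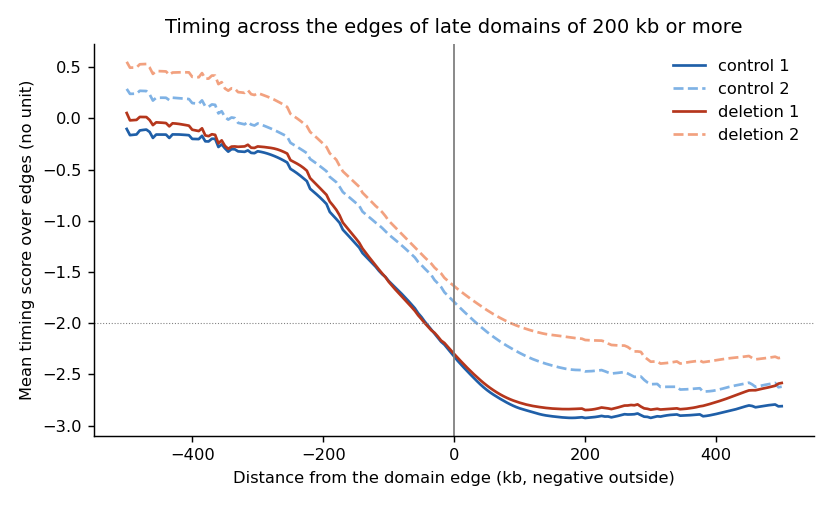
Mean timing score against distance from the edge of late domains of 200 kb or more, in kb, negative outside, 1 line per profile. Number 1 profiles fall below -2 outside the edge and number 2 profiles inside it, and the number 1 lines reach -2.92 and -2.83 at 195 kb inside.

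Late bins scored slightly higher in the deletion profiles, by more than the SD of the control profiles and less than that of the deletion profiles. Control profiles averaged -2.64 ± 0.11 over late bins (SD, n = 2) and deletion profiles -2.46 ± 0.22 (SD, n = 2), a difference of 0.18 (exact two-sided permutation p = 0.667, where 2 against 2 cannot give less than 0.333). Taken by number, it was 0.11 for number 1 and 0.26 for number 2. The whole chromosome had a median difference of 0.16, and with each profile centred on its median the late difference was 0.07. Leaving out deletion replicate 2 gave 0.03, deletion replicate 1 gave 0.34, control replicate 1 gave 0.11 and control replicate 2 gave 0.26. Each of these leaves the numbers uneven between genotypes.

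Bins below -2 in a single profile made up 34.0% (control 1), 26.8% (control 2), 33.7% (deletion 1) and 22.9% (deletion 2) of the chromosome. The means were 30.4% ± 5.10 and 28.3% ± 7.64 (SD, n = 2 each), a difference of -2.12 percentage points (exact two-sided permutation p = 0.667). The direction turned without control replicate 1 (1.49 points) and without deletion replicate 2 (3.28 points). The step from number 1 to number 2, -9.01 points on average, was larger than the genotype difference.

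Bin by bin, the higher 2 profiles were the deletion ones in 1922 late bins (20.2%), against 16.0% of all bins. The deletion profiles were the lower 2 in 143 late bins (1.5%), against 5.86% of all bins. That split moved with the scaling: with median centring it was 14.9% above and 6.94% below in late bins, against 17.4% and 12.1% of all bins. After quantile normalization it was 9.93% and 8.44%, against 14.4% and 14.9%. By limma with Benjamini-Hochberg adjustment, 0 of 9515 late bins passed 0.05, against 0.0% of all bins, and 29 late bins (0.305%) had an unadjusted p under 0.05, against 299 of all 30659 bins. With the replicate number as a block it called 177 late bins (1.86%), against 2.56% of all bins. Of these, 135 (1.42% of late bins) were higher in deletion cells, against 2.09% of all bins. The other 42 (0.441%) were lower, against 0.473%. Over all 30659 measured bins and not late bins alone, both genotype means were below -2 in 8602, the control mean alone in 1094 and the deletion mean alone in 457. No such count after centring is given here. On the deposited scores, late bins with the deletion profiles above both controls formed 81 runs of adjacent bins, and those below both formed 15. These runs hold the same 1922 and 143 bins, so their split rests on the same scaling. No run count over all bins is given here. The longest run above was chr4:96875000-97469999, 119 bins of the Cyp2j domain with a mean difference of 0.52. The mean difference of late bins was 0.25 below 50 Mb, 0.15 from 50 to 100 Mb and 0.13 above 100 Mb. The longest run with a deletion mean alone below -2 was chr4:69775000-70084999, across the higher end of the Brinp1 domain. The next, chr4:55775000-55924999, crossed the lower end of the domain beside Klf4.

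Of the 57 domains, 49 had a higher mean in deletion cells and 8 a lower one. The whole chromosome was also higher, and against its median difference of 0.16 there were 33 domains above and 24 below. The split around 0 was 38 and 19 with median centring and 31 and 26 after quantile normalization. The difference was above 0 in both replicate numbers in 40 domains, below 0 in both in 4 and of opposite sign in 13. The median difference was 0.20, with 0.07 in number 1 and 0.28 in number 2. The differences of the 2 numbers correlated at r = 0.53 over 57 domains, and at 0.41 over the 56 without the domain beside Klf4. The deletion scores exceeded both control scores in 8 domains (14.0%), against 10.4% of the 115 late domains and stretches between them, and below both in 0, against 1.74%. The 8 were the domains of Mmp16, Epha7, Lingo2, 1700009N14Rik, Cylc2 and the Cyp2j genes and 2 without protein-coding genes.

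In the limma fit over the 115 segments, 0 of 57 late domains passed 0.05 after adjustment (0.0% of segments), and 0 had an unadjusted p under 0.05. The SE of a difference was 0.46 for every domain, because limma pooled the spread over all segments. No single domain difference could be told from replicate spread in this fit. The largest in size, -0.68 in the domain beside Klf4, had an unadjusted limma p of 0.139. With the replicate number as a block, 2 domains passed (3.51%), against 6.09% of segments. The first of them, chr4:23870000-24139999, was higher (1.75% of domains), against 4.35% of segments. The other, beside Klf4, was lower (1.75%), against 1.74%. The labels do not state that the numbers are pairs.

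The domain with the lowest genotype difference was the one beside Klf4. Klf4, a pluripotency transcription factor, lies at chr4:55527137-55532475 in early-replicating DNA with control scores of 2.24 and 2.73 and deletion scores of 1.77 and 2.89. The domain chr4:55865000-56359999 (495 kb) begins 333 kb above the end of the gene and holds no protein-coding gene, only the noncoding RNA genes Gm34482, Gm12519 and Gm42291. Its control scores were -2.91 and -1.68, and its deletion scores were -3.58 and -2.38, numbers 1 and 2 in each case. Deletion was the lower genotype within both numbers, but deletion 2 lay above control 1, so the groups overlapped.

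The difference of that domain was -0.68 (limma SE 0.46, adjusted p = 0.974), with -0.66 in number 1 and -0.70 in number 2. With the replicate block the adjusted p of limma was 0.003. All of its bins had a lower deletion mean, with differences from -1.36 to -0.11. Only 6 of its 99 bins had both deletion profiles below both controls. The run of bins below -2 that overlapped it was 515 kb in control 1, 65 kb in control 2, 690 kb in deletion 1 and 420 kb in deletion 2. It was longer in deletion than in control within each number.

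The other domains among the 3 highest and 3 lowest differences were 190 to 610 kb long. The 190 kb domain within Nfia, a transcription factor gene of brain development, had control scores of -2.41 and -1.76 and deletion scores of -2.90 and -2.17. Its difference was -0.45, with -0.49 and -0.41 in the 2 numbers. The domain chr4:127865000-128324999, with parts of Csmd2 and with CK137956 and Hmgb4, differed by -0.19, no larger in size than the median domain difference. On the other side, the domain chr4:23870000-24139999, without a protein-coding gene, scored -3.16, -2.19, -2.96 and -1.43. Its difference was 0.48 (0.20 and 0.76 in the numbers, adjusted p = 0.0446 by limma with the replicate block). The Tmem64 domain differed by 0.43 with 0.43 and 0.42 in the numbers, and chr4:75520000-75794999 by 0.42. None of these passed the limma test without the block, with an adjusted p of 0.974 for each.

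**Figure D5:**
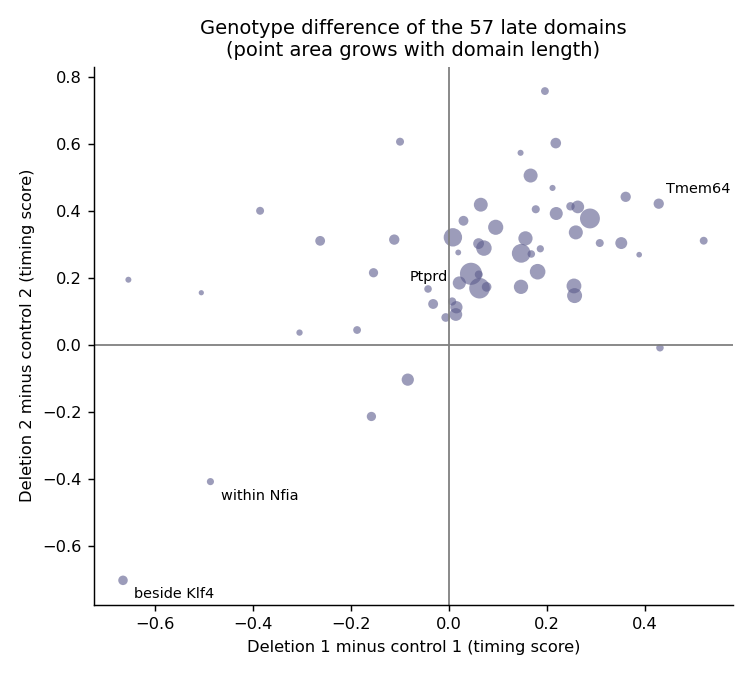
Deletion minus control timing score in number 1 profiles (horizontal) and number 2 profiles (vertical) for the 57 late domains, with point area growing with length. The domain beside Klf4 lies at -0.66 and -0.70, farthest to the lower left, and 40 domains lie above 0 on both axes.

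Genes as a whole leaned higher in deletion cells, with a median difference of 0.14. Among the 81 wholly late protein-coding genes the median was 0.17 and 61 were higher, without a matching count over all genes. The deletion scores exceeded both control scores in 7 of the 81 (8.64%), against 15.1% of all genes. They lay below both in 1 (1.23%), against 6.53%. None passed limma (0 of 81, against 0.0% of 1301 genes), and 0 of the 81 had an unadjusted p under 0.05, against 17 of all 1301. The highest difference was at Bpnt2, a Golgi nucleotide phosphatase, whose control scores were -2.99 and -2.30 and whose deletion scores were -2.51 and -1.37. Its difference was 0.70. Tmem64 (0.68) and the zinc finger gene Zfp352 (0.57) followed. CK137956 differed by -0.34, Dmrta1, a transcription factor gene, by -0.32 and Mup12 by -0.26. The limma adjusted p was 0.9995 for each of these 6 genes, with SE from 0.34 to 0.38.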

How the data were processed

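The authors deposited 1 table of timing scores for chromosome 4, 4 columns in steps of 5 kb, scaled to a common interquartile range per the file headers. Bowtie2, SAMtools, bedtools and mm10 are named in the submitters' processing notes, without versions. The log base of the score, its smoothing and the depth are not given in the sources used here. A position was taken as the start of its bin, and 642 of 31301 positions lacked a score in some profile and were left out. The 8 libraries form 4 profiles, grouped by genotype from the labels and column names. Late bins had a mean score below -2, and adjacent late bins were merged. Genes took the mean score of the bins they overlap, with RefSeq GRCm38.p6 annotation. The table of log2 ratios that the design assumed held unitless scores, and the same tests were run on them.

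The genotype test was limma 3.58.1 (lmFit, eBayes, no block) in R 4.3.3 over all bins, over 115 segments (late domains and the stretches between them) and over 1301 genes, two-sided, with Benjamini-Hochberg adjustment at 0.05. Single values were compared by exact permutation of the 4 profiles. The fits were also run on simulated data with independent noise, and the outcome is not given here. That noise lacked the likeness by replicate number and between adjacent bins, so the run could not test the fits under them. Alternatives were other limits, scaling, merging, limma's trend and robust options, the replicate block and leaving out each profile. The reading of positions as bin ends and the omission of the domain beside Klf4 were chosen after seeing the data. Domains named were the 5 longest, the 5 lowest by mean and, of 100 kb or more, the 3 highest and the 3 lowest in genotype difference. Genes named were up to 4 in the long and low domains, the 3 extremes per direction among wholly late genes, up to 4 per list with the lowest scores, and Klf4. Gene-dense domains, genes of 500 kb or more, the 5 promoters and the tandem family counts were chosen after their values were seen. The members and lists were chosen with earlier results of these data known.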

Additional observations from a re-analysis of the deposited data

How the results depend on the processing

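The number of late bins depended on the rule: 5252 with a mean below -2.5, 5842 below -2 in each profile and 5017 with median centring before the rule, against 9515, while 11759 had a mean below -1.5. Leaving out 1 profile gave 8827 to 10090 late bins and 52 to 68 domains, and the other rules gave 55 to 75. The genotype difference of the late share ran from -7.52 to 3.28 points when 1 profile was left out, turning to 1.49 where control replicate 1 and to 3.28 where deletion replicate 2 was omitted. The late mean difference kept its sign under each of 11 alternatives, from 0.01 after quantile normalization to 0.34, with 0.19 without the domain beside Klf4. The replicate block is counted among them but could not change this difference, since each number holds both genotypes.

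With the replicate number as a block, limma called 177 late bins and 2 domains, but 0 late genes. The labels do not pair the samples, and only 2 numbers exist. In late bins, chosen by the mean of these same profiles, each profile correlated best with the profile of its own number, at 0.66 and 0.77. In early bins control 2 correlated better with control 1 (0.74) than with deletion 2 (0.65). Control 1, deletion 1 and deletion 2 still correlated best by number there. Without the block, leaving out 1 profile gave 0 to 7 called bins, with 7 without deletion replicate 2, and no late domain or gene was called under any other alternative run. Depth is unknown, so no counting error can be given for any score, and 2 profiles per genotype limit every comparison.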
